A study of Mus musculus with 6 samples.

Results

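The paired immune receptors described here are the PILR genes Pilra, Pilrb1 and Pilrb2 and the CD300 genes Cd300a, Cd300c, Cd300lb, Cd300ld, Cd300ld3, Cd300lf and Cd300lg. The 10 genes were listed by family, and the families were chosen on the measured difference between genotypes of Pilrb1, which read higher in Merit40-/-, and Cd300ld3, which read lower. All 10 had a row among the 23185 genes with a symbol on the arrays. RNA was taken from freshly isolated bone marrow HSCs (hematopoietic stem cells) of young adult mice, the CD150+CD48-LSK population, with no culture and no treatment. LSK stands for cells without lineage markers that carry Sca-1 and c-Kit. There were 3 Affymetrix Mouse Gene 2.0 ST arrays of wild-type (WT) cells and 3 of Merit40-/- cells, which lack a subunit, encoded by Babam1, shared by the BRISC and BRCA1-A deubiquitinase complexes. The arrays are labelled as biological replicates. The sources used here name no strain, sex, exact age, allele design or number of mice per array.

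Paired receptors are sets of related surface proteins with similar outer domains and opposite signals. The inhibitory kind carries tyrosine motifs (ITIMs) that recruit the phosphatases SHP-1 and SHP-2, whereas the activating kind has a short tail and signals through adaptors with activating motifs (ITAMs), such as DAP12 or the Fc receptor gamma chain. In blood they are known mainly from myeloid cells, where they raise or lower the response to ligands that include sialylated glycoproteins for PILR and membrane lipids for CD300.

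The promoters of the genes that chose the families are shown because each has a near-identical copy nearby. Array probes read transcripts, so promoter identity does not show whether the arrays tell the copies apart. Sequences are from RefSeq (GRCm38.p6) and cover the 250 bases before the annotated start, 5′ to 3′ on the strand of the gene. Promoters were found for 9 of the 10 genes. The promoters of Pilrb1 (chr5:137858050-137858299, minus strand) and Pilrb2 (chr5:137871759-137872008, minus strand) were identical at 246 of 250 bases (98.4%), and capitals mark the 4 that differ.
Pilrb1: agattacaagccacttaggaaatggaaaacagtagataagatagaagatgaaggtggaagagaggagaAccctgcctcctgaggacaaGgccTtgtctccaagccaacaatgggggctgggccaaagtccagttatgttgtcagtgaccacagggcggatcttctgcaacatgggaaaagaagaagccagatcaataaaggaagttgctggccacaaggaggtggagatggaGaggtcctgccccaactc
Pilrb2: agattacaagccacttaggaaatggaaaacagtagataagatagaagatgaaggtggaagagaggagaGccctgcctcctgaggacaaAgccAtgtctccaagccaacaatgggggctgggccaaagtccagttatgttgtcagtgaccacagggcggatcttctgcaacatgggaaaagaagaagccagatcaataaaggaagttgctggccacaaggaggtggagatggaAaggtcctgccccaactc
Counted from 1 at the 5′ end, with the base of Pilrb1 named before that of Pilrb2, the differences were A69G, G89A, T93A and G233A. Pilra, the inhibitory gene of the trio (chr5:137836279-137836528, minus strand), was identical to Pilrb1 at 192 of 304 aligned columns, gaps counted (63.2%). The stretch that opens the Pilrb1 window lies further along the Pilra window. The percentage thus reflects this offset of the annotated starts as well as base differences. Capitals in the Pilra sequence mark matches to cores of blood cell factors. The first is GAGGAA, the core bound by the myeloid factor PU.1. The second is AGATAA, bound by factors of the GATA family. The last is the RUNX core TGTGGT, read on the opposite strand.
Pilra: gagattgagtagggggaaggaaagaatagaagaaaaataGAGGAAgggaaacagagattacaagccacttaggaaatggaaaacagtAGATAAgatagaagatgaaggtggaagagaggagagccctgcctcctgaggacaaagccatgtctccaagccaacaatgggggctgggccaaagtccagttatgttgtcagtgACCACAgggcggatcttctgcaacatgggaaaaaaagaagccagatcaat

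The promoter of Cd300ld3 (chr11:115048331-115048580, minus strand) was identical at 237 of 250 bases (94.8%) to that of Cd300ld4 (chr11:115026934-115027183, minus strand), and capitals mark the 13 that differ. Cd300ld5 had the same 250 bases as Cd300ld4, and the RefSeq gene models of Pilrb1, Cd300ld3 and Cd300ld4 reach past the start used for their windows.
Cd300ld3: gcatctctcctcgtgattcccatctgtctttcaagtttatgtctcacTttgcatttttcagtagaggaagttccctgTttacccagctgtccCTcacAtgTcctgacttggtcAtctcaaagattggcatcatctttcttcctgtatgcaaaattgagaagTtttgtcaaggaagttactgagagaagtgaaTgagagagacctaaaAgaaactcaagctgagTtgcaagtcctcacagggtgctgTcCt
Cd300ld4: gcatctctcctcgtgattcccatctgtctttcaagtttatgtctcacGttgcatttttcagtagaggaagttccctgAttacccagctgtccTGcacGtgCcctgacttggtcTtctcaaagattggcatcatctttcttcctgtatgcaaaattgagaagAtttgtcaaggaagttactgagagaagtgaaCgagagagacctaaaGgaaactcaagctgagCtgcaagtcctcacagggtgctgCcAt
Over all 78 pairs of the 13 PILR and CD300 promoters the median identity was 49.0%. Searched on both strands, GAGGAA was present in 5 of the 9 promoters against 23.25% of 32851 RefSeq promoters cut to the same length. TGTGGT was present in 4 (14.05% of all) and AGATAA in 3 (9.99% of all), with no overlap between matches of different motifs in these 9. All the AGATAA matches, and all the TGTGGT matches but that of Cd300c, were in the PILR genes. They fall in a stretch that the PILR promoters share, so they are not separate occurrences. Nothing is read from these counts. The Pilrb1 and Pilrb2 promoters held the same RUNX and GATA matches, 104 and 217 bases before the start. In Pilra the shared stretch placed both at 50 and 163 bases before its annotated start. Cd300ld3 held a GAGGAA 187 bases before its start. These matches describe the letters only and were not tested for binding. Cd300ld4 and Cd300ld5 were not analysed here, and probe sequences were not used. Whether probes of Pilrb1 also read Pilrb2, or those of Cd300ld3 read Cd300ld4 and Cd300ld5, was not tested.

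The values are log2 expression after RMA, on which a difference of 1 is a 2-fold change, and levels of different genes are not compared as amounts of transcript. Array medians were 4.91 to 4.97. Babam1, the targeted gene, had a mean of 8.0 ± 0.08 (SD, n = 3) on WT arrays and of 4.06 ± 0.21 (SD, n = 3) on Merit40-/- arrays, and fell by 3.94 (adjusted p = 5.04e-05 in limma). The sorting genes Kit (10.96 in WT, 11.06 in Merit40-/-) and Slamf1, which encodes CD150 (8.05 and 8.23), read high in both genotypes. Cd48 (5.42 and 5.39), the monocyte receptor gene Csf1r (4.38 and 4.40) and the T cell gene Cd3e (3.18 and 3.15) lay near or below the medians. Other myeloid genes did not. Itgam (6.37 and 6.68) and Ly6g (6.18 and 6.99) lay above the medians, and Ly6c2 (9.08 and 8.90) and S100a9 (12.05 and 11.99) far above. Merit40-/- replicate 1 stood apart in skeletal muscle genes (mean of 8 markers 9.15 against 4.74 to 5.12 on the other arrays). Merit40-/- replicate 3 stood apart in osteoclast genes (mean of 8 markers 5.37 against 3.94 to 4.12). Their part in the differences was not tested beyond leaving each array out.

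Among the activating receptors, Pilrb1, a DAP12-coupled receptor whose ligands include CD99, read 3.23, 3.83 and 4.27 on WT replicates 1, 2 and 3. On Merit40-/- replicates 1, 2 and 3 it read 5.30, 4.45 and 5.69. All Merit40-/- arrays were above all WT arrays, but the nearest arrays, WT replicate 3 and Merit40-/- replicate 2, were close together. The mean was 3.78 ± 0.52 (SD, n = 3) for WT against 5.14 ± 0.64 (SD, n = 3) for Merit40-/-, a difference of 1.37 (SE 0.35), or 2.58-fold. WT replicate 1 and the Merit40-/- array with high osteoclast genes held the extremes. Without either of them the difference was 1.10, and without Merit40-/- replicate 2 it was 1.72. The WT level lies below the array medians, where arrays can understate differences. The gene was also chosen for its difference, which can overstate it. Neither effect on the size of the difference was tested.

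Pilrb2, the second activating gene of the trio, read 4.11, 3.08 and 3.22 in WT and 3.74, 3.62 and 3.14 in Merit40-/-. The groups overlapped fully, since the highest and the lowest value were both from WT. The difference was 0.03 (SE 0.28), and its sign depended on which array was left out, from -0.17 without WT replicate 2 to 0.35 without WT replicate 1. The 95% interval of -0.62 to 0.67 leaves room for a difference in either direction. In WT replicate 1 Pilrb2 was at its highest and Pilrb1 at its lowest, and in Merit40-/- replicate 3 Pilrb2 was below its other Merit40-/- values and Pilrb1 above them. Between other arrays the genes moved the same way. Both rose from WT replicate 2 to WT replicate 3, and both fell from Merit40-/- replicate 1 to Merit40-/- replicate 2. No joint pattern is read from these values.

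Cd300ld3 (CLM-3), an activating CD300 receptor of myeloid cells, read 7.21, 6.89 and 6.73 on WT replicates 1, 2 and 3. It read 6.07, 6.32 and 5.73 on the Merit40-/- arrays, all of them below every WT array. The means were 6.94 ± 0.24 (SD, n = 3) and 6.04 ± 0.29 (SD, n = 3), a difference of -0.90 (SE 0.19), or 1.87-fold. Leaving out each array in turn gave -1.04 to -0.75. In these bulk samples fewer cells with the transcript and less of it per cell cannot be told apart.

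The other activating CD300 genes among the 10 differed by 0.26 or less. Cd300ld (CLM-5), which couples to the Fc receptor gamma chain, read 4.02, 3.65 and 3.28 in WT and 3.99, 4.20 and 3.53 in Merit40-/-, a difference of 0.26 (SE 0.23). That difference was 0.07 without WT replicate 3, 0.11 without Merit40-/- replicate 2, and 0.44 without WT replicate 1 or Merit40-/- replicate 3. Cd300lb (CLM-7), a DAP12-coupled receptor, read 3.77, 3.65 and 3.82 in WT and 3.80, 4.20 and 3.82 in Merit40-/-. Its difference of 0.19 (SE 0.14) was carried by Merit40-/- replicate 2, without which it was 0.06. Cd300c (CLM-6) had the least spread of the 10 genes, with means of 4.90 ± 0.07 (SD, n = 3, WT) and 4.99 ± 0.03 (SD, n = 3, Merit40-/-), and differed by 0.08 (SE 0.11). The arrays of the genotypes overlapped for all 3 genes.

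The inhibitory receptors showed no shared direction. Pilra, which binds the same kind of ligands as Pilrb1 and recruits SHP-1, read 5.65, 5.74 and 5.77 in WT and 5.76, 6.01 and 4.83 in Merit40-/-. Its WT arrays lay within a narrow band, and the low value came from the array with high osteoclast genes, Merit40-/- replicate 3. The difference of -0.19 (SE 0.28) became 0.17 (SE 0.14) without that array, -0.30 without Merit40-/- replicate 1 and -0.43 without Merit40-/- replicate 2. On that same array Pilrb1 had its highest value of the 6. Over WT replicates 1, 2 and 3, however, both Pilra and Pilrb1 rose, and no joint pattern is read. Cd300a (CLM-8), which binds phosphatidylserine and phosphatidylethanolamine, had the same mean in both genotypes, 5.85 ± 0.20 (SD, n = 3, WT) and 5.85 ± 0.22 (SD, n = 3, Merit40-/-). Its difference had a 95% interval of -0.37 to 0.37. Cd300lf (CLM-1), an inhibitory receptor of myeloid cells that is also the mouse norovirus receptor, read 4.98, 4.48 and 4.999 in WT and 4.78, 5.17 and 4.75 in Merit40-/-. Its difference was 0.08 (SE 0.18), within the spread of either group, and ranged from -0.09 to 0.17 as arrays were left out in turn. Cd300lg (nepmucin), known mainly from blood vessel endothelium, stood at 3.19 ± 0.14 (SD, n = 3) and 3.14 ± 0.25 (SD, n = 3), far below the array medians in both genotypes.

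**Figure D1:**
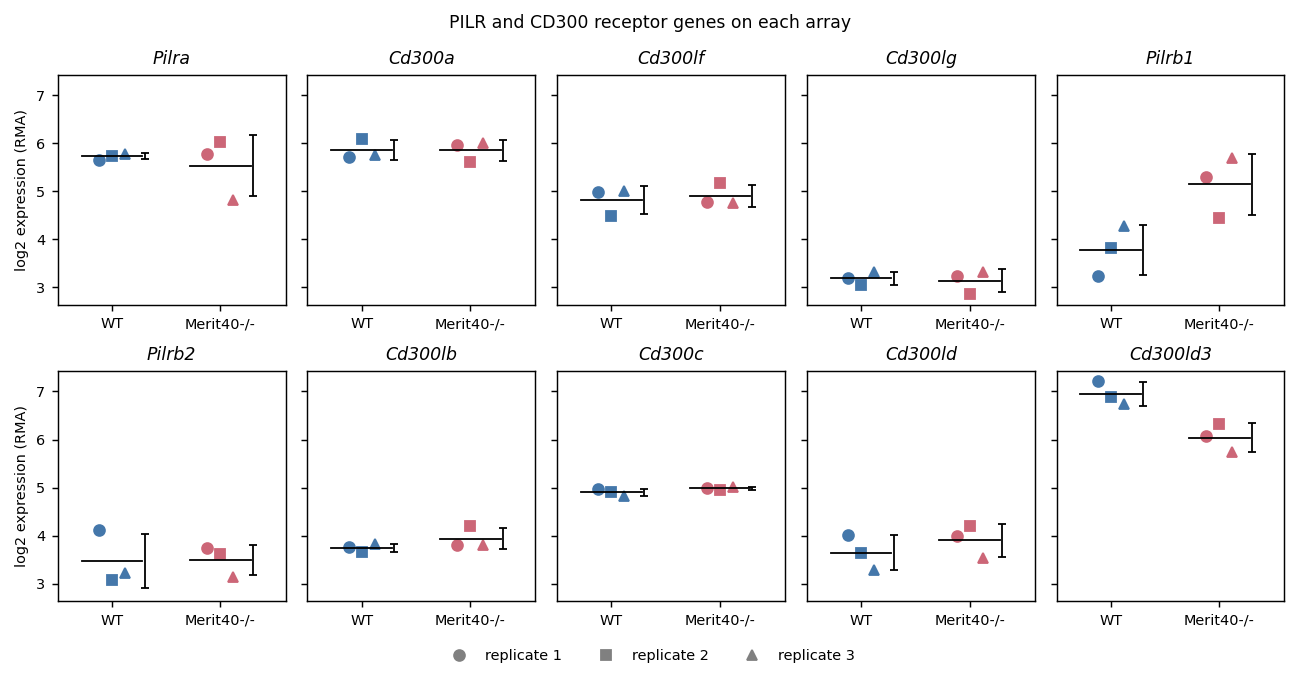
Log2 expression (RMA, vertical axis) of the 10 receptor genes on each array, with WT in blue and Merit40-/- in red; symbols mark the replicate number, the horizontal line the mean and the bar ± 1 SD (n = 3). Pilrb1 reads 3.23 to 4.27 in WT and 4.45 to 5.69 in Merit40-/-, Cd300ld3 reads 6.73 to 7.21 and 5.73 to 6.32, and the genotypes overlap in the other 8 genes.

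In limma, fitted over the whole table with Benjamini-Hochberg adjustment, 0 of the 10 genes passed an adjusted p of 0.05, against 0.00431% of all genes, which is Babam1 alone. At an unadjusted p under 0.05 there were 2 of the 10 (4.22% of all genes), and for 2 of the 10 no array of one genotype lay within the range of the other (9.05% of all genes). In each count these 2 are Pilrb1 and Cd300ld3, the genes that chose the families, so nothing is read from the counts. The same shares of all genes stand beside the counts given for the lists below. Of the 10 genes 6 were higher and 4 lower in Merit40-/-, with a median difference of 0.05 beside 0.01 over all genes. Left-out arrays moved that count between 5 and 7 higher, and the median between -9.9e-06 without WT replicate 2 and 0.16 without Merit40-/- replicate 3. The genes with no overlap had differences of 1.37 and -0.90, and the next in size, Cd300ld and Pilra, 0.26 and -0.19.

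The replicate arrays of each genotype scattered more for the PILR genes than for most genes, which is given as a description. The SD between arrays of one genotype, pooled over both, was 0.58 for Pilrb1, 0.45 for Pilrb2 and 0.45 for Pilra. The median over all genes was 0.18 and the 95th percentile 0.43, so that all 3 PILR genes lay above it. That of Pilra rested on Merit40-/- replicate 3, since its WT arrays had an SD of 0.06. For Pilrb2 WT replicate 1 stood well above the other WT arrays, and for Pilrb1 both genotypes were spread out. The CD300 genes lay across the range, from 0.05 for Cd300c to 0.36 for Cd300ld, with 0.27 for Cd300ld3. The spread of an array gene also depends on its level and its number of probes, whose part was not tested.

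**Figure D2:**
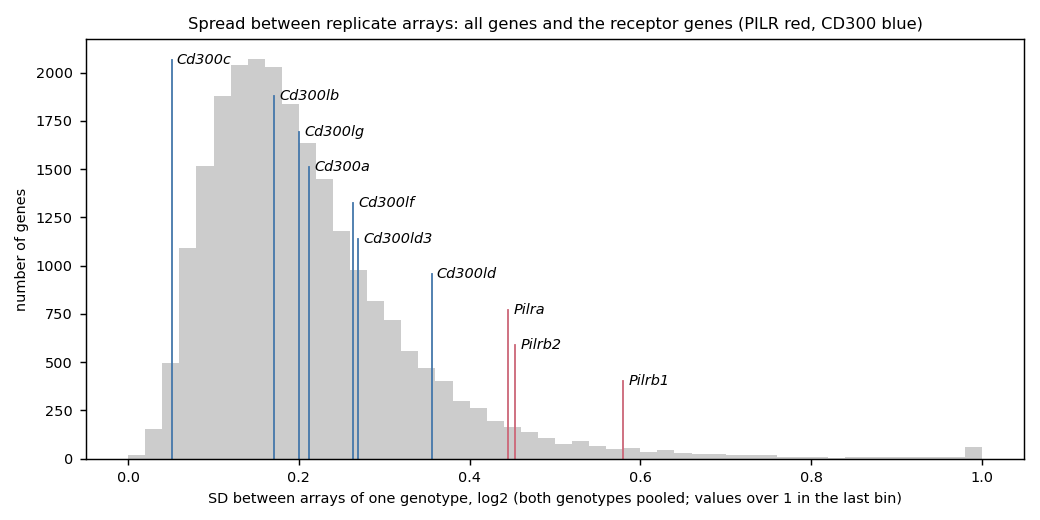
Histogram of the SD between replicate arrays of one genotype (log2, both genotypes pooled) over all 23185 genes, with lines at the 3 PILR genes (red) and the 7 CD300 genes (blue). The PILR genes lie at 0.45 to 0.58, right of the bulk of genes, and the CD300 genes at 0.05 to 0.36.

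The measured genes beside Pilrb1 and Cd300ld3 on their chromosomes had small differences. Pilra and Pilrb2 flank Pilrb1 on chromosome 5 and differed by -0.19 and 0.03. The 5 nearest measured genes on each side of the trio, among them Mepce, the capping enzyme of 7SK RNA (0.05), and Cyp3a13, a cytochrome P450 (0.15), differed by -0.11 to 0.15. In the CD300 cluster of chromosome 11, Cd300ld2 and Cd300e lie on either side of Cd300ld3 among measured genes and differed by -0.02 (SE 0.15) and -0.11 (SE 0.20). Over the 30 neighbours of the PILR genes, the CD300 cluster and Cd300lg, 16 were higher and 14 lower, from -0.36 to 0.23. The split was 21 to 9 without the array with muscle genes, Merit40-/- replicate 1, and 12 to 18 without WT replicate 2 or Merit40-/- replicate 2. In limma 0 of the 30 passed the adjusted threshold and 0 had an unadjusted p under 0.05 (1 when Merit40-/- replicate 3 or either of WT replicates 1 and 3 was left out).

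**Figure D3:**
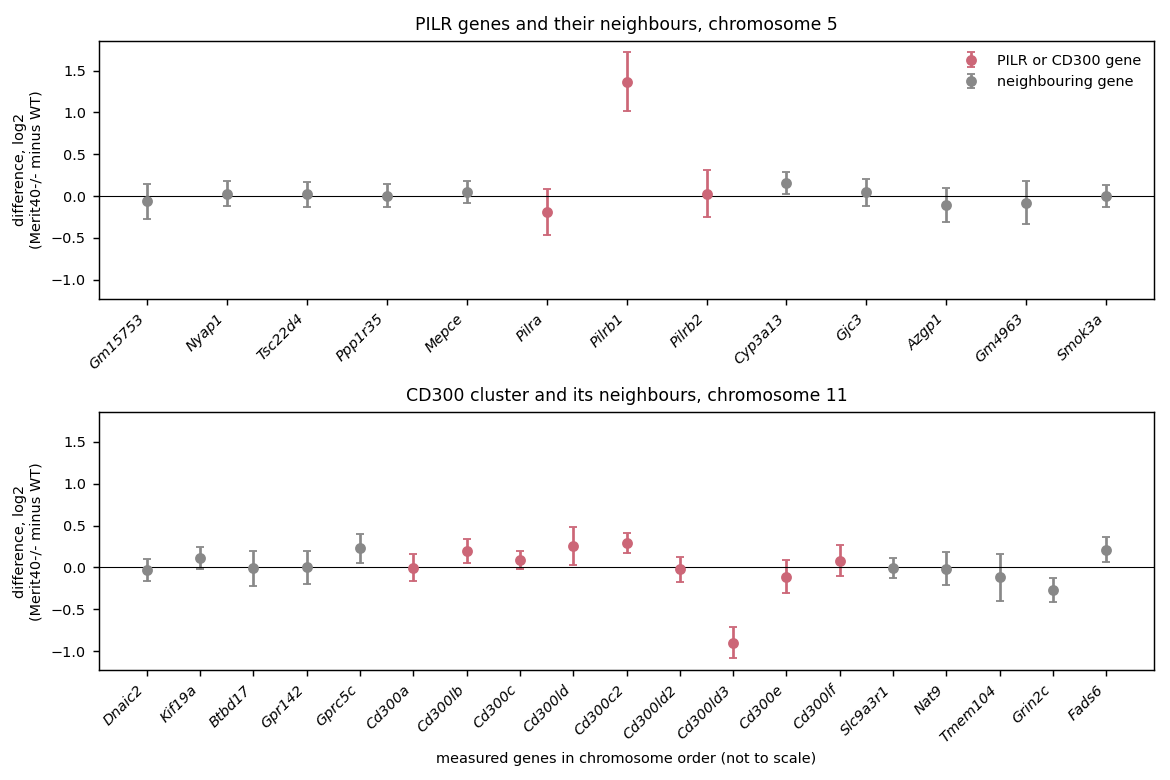
Difference between genotypes (Merit40-/- minus WT, log2, with limma's SE as bars) of measured genes in chromosome order, not to scale, at the PILR genes and the CD300 cluster (Cd300lg, which lies apart, is not drawn); red points are PILR or CD300 genes and grey points the 5 nearest other genes on each side. Pilrb1 stands at 1.37 and Cd300ld3 at -0.90, and all other genes drawn lie between -0.27 and 0.29.

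Of 5 further CD300 genes listed, 3 were measured, and 0 passed the adjusted threshold in limma. Cd300c2 (CLM-4), an activating receptor, read 3.37, 3.41 and 3.47 in WT and 3.78, 3.75 and 3.60 in Merit40-/-, a difference of 0.29 (SE 0.11). Its groups did not overlap, and its unadjusted p of 0.0333 (adjusted p = 0.999) in limma did not hold when any array but Merit40-/- replicate 3 was left out. Cd300e and Cd300ld2 overlapped between genotypes.

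The adaptors that activating PILR and CD300 receptors need were high in both genotypes. Tyrobp, which encodes DAP12, had means of 8.65 ± 0.28 (SD, n = 3, WT) and 8.78 ± 0.09 (SD, n = 3, Merit40-/-). Fcer1g, the Fc receptor gamma chain, stood at 9.15 ± 0.19 (SD, n = 3) and 9.20 ± 0.21 (SD, n = 3). The list also held the adaptor gene Hcst (DAP10), which is not named above for these receptors. Hcst read 8.62, 8.51 and 8.78 in WT and 8.26, 8.23 and 8.21 in Merit40-/-. Its groups did not overlap, with a difference of -0.40 (SE 0.12, adjusted p = 0.999 in limma). Of 18 measured genes of ITAM adaptors and activating signalling 10 were higher and 8 lower, with a median of 0.05. There were 7 higher and 11 lower without Merit40-/- replicate 1, and 12 higher and 6 lower without Merit40-/- replicate 3. In limma 0 passed, and 2 (Hcst and the kinase gene Btk at -0.37) had an unadjusted p under 0.05. That count was 1 without WT replicate 2 or Merit40-/- replicate 2, and 3 without Merit40-/- replicate 3.

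On the inhibitory side, the phosphatase genes Ptpn6 (SHP-1) and Ptpn11 (SHP-2) differed by 0.19 (SE 0.14) and -0.19 (SE 0.16), with overlapping arrays. Inpp5d, the lipid phosphatase SHIP-1, differed by 0.21 (SE 0.15). Dok2, an adaptor that restrains tyrosine kinase signalling, read 6.64, 6.22 and 6.96 in WT and 5.79, 6.20 and 6.06 in Merit40-/-. The groups did not overlap, but WT replicate 2 and Merit40-/- replicate 2 were almost level, with a difference of -0.59 (SE 0.20, adjusted p = 0.999 in limma). Of the 10 genes of the list 4 were higher and 6 lower, with a median of -0.11. In limma 0 passed and 1, Dok2, had an unadjusted p under 0.05, which was lost without WT replicate 3.

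Among 6 measured genes of proposed PILR ligands and CD300 binding partners, 5 read higher in Merit40-/-, with a median of 0.28 beside 0.01 over all genes. The C-type lectin gene Clec4g read 4.24, 4.97 and 4.83 in WT and 5.45, 5.62 and 4.95 in Merit40-/-, a difference of 0.66 (SE 0.24). Cd99l2, of the CD99 family, read 5.76, 5.90 and 6.61 in WT and 6.93, 6.37 and 6.80 in Merit40-/-, a difference of 0.61 (SE 0.24). In both genes 1 Merit40-/- array lay within the WT range. The collectin gene Colec12 read 3.73, 3.74 and 3.49 in WT and 4.08, 4.04 and 3.83 in Merit40-/-, without overlap but below the array medians. Pianp, a PILR ligand of the nervous system, differed by -0.14, Npdc1 by 0.23 and Havcr1 (TIM-1), a partner of Cd300lb, by 0.01. In limma 0 of the 6 passed (adjusted p = 0.999 for Clec4g, Cd99l2 and Colec12), and these 3 had an unadjusted p under 0.05. That count fell to 0 without the array with muscle genes, Merit40-/- replicate 1, and to 1 without WT replicate 1 or Merit40-/- replicate 2, where 4 of the 6 were still higher.

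Of 39 measured genes of other paired receptors of myeloid cells 13 were higher (33.3%, beside 51.5% of all genes) and 26 lower. The median was -0.05, and without WT replicate 2 there were 18 higher and 21 lower. In limma 0 passed and 3 of the 39 had an unadjusted p under 0.05 (4.22% of all genes). These were Siglece, an inhibitory sialic acid receptor (-0.44), Trem3, an activating DAP12 partner (-0.45), and Clec4d, an Fc receptor gamma chain partner (-0.44). The arrays of Siglece and Trem3 overlapped between genotypes. The count was 2 without WT replicate 1, Merit40-/- replicate 2 or Merit40-/- replicate 3, and 4 without WT replicate 2. The inhibitory receptor gene Lilrb4a had the lowest difference, -0.62 (SE 0.35), with overlapping arrays, and the Fc receptor gene Fcgr3 the highest, 0.27 (SE 0.19).

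**Figure D4:**
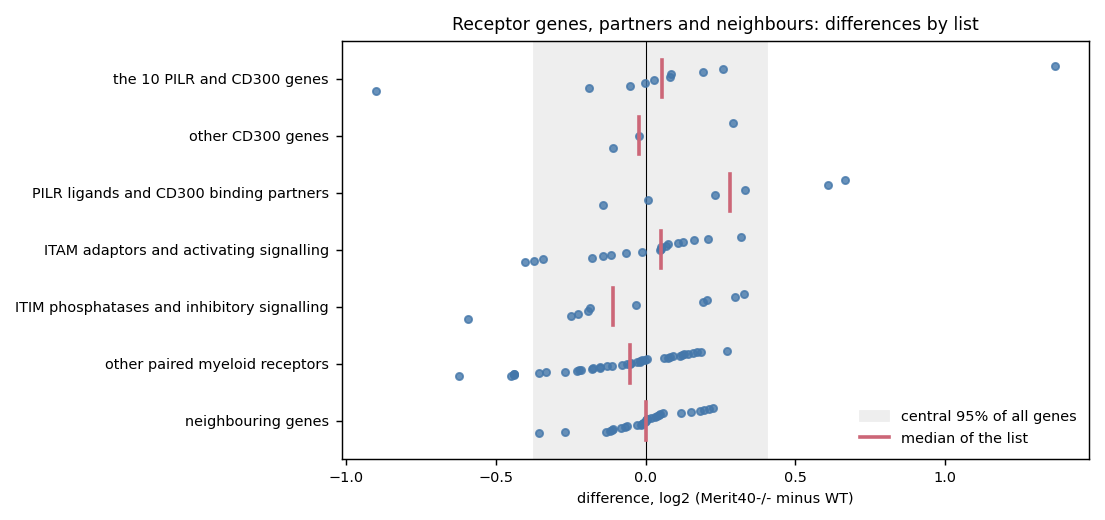
Difference between genotypes (Merit40-/- minus WT, log2) of each gene (points) in the receptor families, their partners and their neighbours, with the median of each list (red bar) and the central 95% of all genes (grey band). The ligand list has its median at 0.28, the other medians lie between -0.11 and 0.05, and among the 10 receptor genes Pilrb1 at 1.37 and Cd300ld3 at -0.90 lie outside the band.

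Array means of markers of the myeloid cells that usually carry these receptors overlapped between the genotypes. The mean of 11 measured monocyte and macrophage markers was 4.98 to 5.21 over WT arrays and 4.94 to 5.17 over Merit40-/- arrays, with 5 genes higher and 6 lower. The 12 neutrophil markers averaged 8.44 to 8.73 and 8.21 to 8.93, with S100a9 at 12.05 and 11.99 and the surface marker Ly6g at 6.18 and 6.99. The 9 measured mast cell and basophil markers averaged 4.07 to 4.12 and 3.85 to 4.46, and the 10 dendritic cell markers 5.68 to 5.87 and 5.76 to 5.79. In these lists 0 genes passed in limma, and 1, Ly6g, had an unadjusted p under 0.05. For markers of platelet and red cell precursors the array means did not overlap. This was not particular to them. The ligand list (4.81 to 4.88 in WT, 5.04 to 5.22 in Merit40-/-) did not overlap either. Nor did the other paired receptors (4.744 to 4.858 in WT, 4.680 to 4.743 in Merit40-/-) or the osteoclast markers (3.936 to 4.098 in WT, 4.104 to 5.366 in Merit40-/-). Megakaryocyte markers had array means of 7.67 to 7.93 in WT and 7.31 to 7.49 in Merit40-/-, with 6 of 7 measured genes lower. Among them were Itga2b, which encodes CD41 (-0.53, SE 0.13), and the platelet factor gene Pf4 (-0.60, SE 0.26). In limma 0 of the 7 passed and 3 had an unadjusted p under 0.05 (1 without WT replicate 2). Erythroid markers had array means of 6.38 to 6.74 in WT and 6.14 to 6.36 in Merit40-/-, with 5 of 6 measured genes lower and a median of -0.24. In limma 0 of the 6 passed, and Car1, a carbonic anhydrase (-0.84, SE 0.30), and Ermap, a red cell membrane protein (-0.90, SE 0.32), had an unadjusted p under 0.05. That count was 0 without WT replicate 1 or Merit40-/- replicate 1 and 1 without WT replicate 3, Merit40-/- replicate 2 or Merit40-/- replicate 3. The part of the megakaryocyte and erythroid lists in the differences of the receptor genes was not tested.

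The genes closest to Pilrb1 and Cd300ld3 from array to array were also listed. Closeness was taken as the root mean square of the distance between the deviations of each gene from its own mean over the 6 arrays. For Pilrb1 the nearest named genes were the immunoglobulin segment Igkv8-16 (0.37 log2 units), the zinc finger gene Zfp667 (0.41) and the annexin gene Anxa6 (0.42). In all 3 the highest array was Merit40-/- replicate 3, as for Pilrb1. For Cd300ld3 they were Mccc1os (0.15), the corepressor gene Cir1 (0.18) and the acyl-CoA thioesterase gene Acot4 (0.20), which had their highest value in WT replicate 1, as Cd300ld3 had. These are descriptions over 6 arrays, in which the genotype difference carries much of the closeness. The genes were picked for their closeness, so a shared highest array comes in part from the choice, and nothing is read from it.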

How the data were processed

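Gene expression was measured on 6 arrays, 3 of WT and 3 of Merit40-/- HSCs. The deposited log2 values, 1 per gene and array, were made by the authors with RMA and affy, per the submitters' processing notes; no version, chip definition or build is named in the sources used here. Of 25206 rows, 23185 had 1 symbol, 0 several and 2021 were unnamed here. All 23185 Entrez numbers were found in the RefSeq table (GRCm38.p6), used for symbols and gene order. Some listed genes were not analysed here.

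The test was limma (version 3.58.1, R 4.3.3) over all 23185 genes, with lmFit and eBayes, genotype as the one term, 2-sided, Benjamini-Hochberg adjustment and a threshold of 0.05. The procedure was tested on simulated data. Members, lists and tests were chosen with earlier results of these data known. Named are all members and, of each list, genes past the threshold or else the highest and lowest difference and the highest level. Also named are defining markers and the 3 closest genes to Pilrb1 and Cd300ld3. Predicted loci, RIKEN clones, small RNAs and chemosensory receptors were left out of the search for the closest genes. Other genes, such as adaptors, Cd99l2, Colec12, Btk and genes with an unadjusted p under 0.05, were named after their values were seen. No pseudocount was added, and no filter was applied before the test.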

Additional observations from a re-analysis of the deposited data

How the results depend on the processing

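Under a replicate block, an intensity trend, array weights, equal array medians, quantile normalization, a filter on the dimmest 30% of genes, all 25206 rows tested and each array left out in turn, limma called 1 gene, Babam1, and 0 of the receptor genes. The replicate block gave 1 called gene and 991 at an unadjusted p under 0.05, against 979 without it; same-numbered arrays did not deviate together (r of -0.05, -0.003 and 0.04 across genes). The filter left out Pilrb2 and Cd300lg. Pilrb1 and Cd300ld3 kept their direction in all 13 alternatives, as did Cd300c, Cd300lb and Cd300ld. For Pilrb1 and Cd300ld3 nothing is read from this, since they were chosen for their differences. Their genotypes do not overlap, so no left-out array could change the sign. The block, the trend, the filter and the test of all rows leave each difference as it was. The other 5 genes, with differences of at most 0.19 in size, changed sign in 1 to 5 of the alternatives, and no difference moved by more than its SD between arrays. Leaving out each array for the counts of higher and lower genes was added after seeing the data, and it took the other CD300 genes that were higher from 1 to 2 of 3 without WT replicate 2, Merit40-/- replicate 1 or Merit40-/- replicate 3. The number of arrays limits the precision, and differences of genes below the array medians can be understated. Those of Pilrb1 and Cd300ld3, for which the families were chosen, can be overstated.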
